A study of Homo sapiens with 8 samples.

Results

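The genes described here encode the proteins of the mitochondrial ribosome. They were the rows of the deposited polyA RNA table whose symbol is MRPL or MRPS, a number and, for the small subunit, at most 1 letter from A to C. This rule found 76 of the 18892 genes in the table, 48 named for the large subunit (MRPL) and 28 for the small subunit (MRPS), and all 76 passed the minimum for testing, 1 RPM in 2 or more of the 4 libraries. RPM is a read count scaled to a common library total, with the authors' own divisor for each library. The values come from 2 libraries of C4-2 cells with a hairpin RNA against CDCA8 (shCDCA8) and 2 libraries of C4-2 cells with a control hairpin (shCTRL). C4-2, an established line of prostate cancer cells, descends from LNCaP and can grow in the absence of androgen, and both groups were kept in RPMI medium with fetal bovine serum. CDCA8 (borealin) is a subunit of the chromosomal passenger complex, which guides chromosome segregation and cytokinesis. The labels name no second hairpin and no rescue, so effects of losing CDCA8 and effects of the hairpin on other transcripts cannot be told apart. Whether the 2 libraries of a group came from separate cultures is not stated, so p-values measure only the spread between these libraries, which may be technical.

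The mitochondrial ribosome translates the few messages of the mitochondrial genome, all of which encode core subunits of the respiratory chain and ATP synthase. Its RNA is made in the mitochondrion, while its proteins are encoded in the nucleus, made on cytosolic ribosomes and imported. Part of them have bacterial counterparts, and part were gained during mitochondrial evolution and clad a shortened RNA core. The large subunit joins amino acids and holds the exit tunnel, and the small subunit binds the message and decodes it. A pair of proteins named for the small subunit, MRPS30 and MRPS18A, sit in the large subunit in mammalian structures, and MRPS36 is now described as a subunit of the alpha-ketoglutarate dehydrogenase complex.

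What these genes share next to their start sites is shown first, because a short element recurs there and because the gene that fell most lies back to back with a gene of the other subunit that rose. RefSeq promoter windows (GRCh38.p14, 250 bases before to 50 bases after the start) were given for 67 of the 76 genes. A gene with more than 1 window was counted once, with a match in any of its windows. The YY1 motif AAGATGGC, read on either strand, was found for 20 of these 67 genes (29.9%). It was found for 6.94% of the 8848 tested genes with a window and 3.52% of all 27305 genes with a window. On the gene's own strand and within the first 50 transcribed bases it was found for 15 of 67 (22.4%), against 3.97% of tested genes with a window. Of those 15, 10 belonged to the 27 genes with a window that rose in shCDCA8 cells, 2 to the 13 that fell and 3 to the 27 that were not called. On either strand and anywhere in the window, it was found for 12 of the 27, 2 of the 13 and 6 of the 27. No motif was counted by call over all tested genes, so whether such a split is particular to the family is not known. The element is capitalised in the first bases of 7 genes that rose, from both subunits, of which MRPL50 was not called without shCDCA8 replicate 1 (limma adjusted p = 0.0616):

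MRPL42 (chr12:93467514-93467541, + strand): attgaaacAAGATGGCgggttcgtggtg
MRPL46 (chr15:88467361-88467388, - strand): gagaacgaAAGATGGCggcgcccgtaag
MRPL50 (chr9:101398578-101398605, - strand): gatctcatcgAAGATGGCggcgcgatct
MRPL51 (chr12:6493224-6493251, - strand): ggtaaggcccAAGATGGCtgtcttcgcc
MRPS7 (chr17:75261888-75261915, + strand): gtggccagccAAGATGGCtgcccccgca
MRPS10 (chr6:42217834-42217861, - strand): gggaccggcAAGATGGCggcgcggacag
MRPS30 (chr5:44808950-44808977, + strand): atcgcgggcaAAGATGGCggcggccagg

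The element also stood in the first transcribed bases of MRPS27 and MRPL49, which fell as deposited, so it was not found on one side alone:

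MRPS27 (chr5:72320207-72320234, - strand): ggtacgctccAAGATGGCtgcctccata
MRPL49 (chr11:65122334-65122361, + strand): gtagcaggtaAAGATGGCagctaccatg

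The ETS motif CCGGAAG (the core bound by GABP and other ETS factors) was found for 29 of 67 genes (43.3%), against 23.2% of tested genes with a window. Of the genes with a window, 15 of 27 that were not called carried it, 10 of 27 that rose and 4 of 13 that fell. It is capitalised in the bases just before the start of 3 genes that rose. The stretch of MRPS22 has a pair of matches, 1 on each strand, and a further match begins at base 6 after the start, outside the stretch shown:

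MRPS31 (chr13:40771191-40771250, - strand): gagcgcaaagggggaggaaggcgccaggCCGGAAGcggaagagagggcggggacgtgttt
MRPL47 (chr3:179604639-179604698, - strand): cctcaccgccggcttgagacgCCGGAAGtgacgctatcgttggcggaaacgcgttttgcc
MRPS22 (chr3:139343874-139343993, + strand): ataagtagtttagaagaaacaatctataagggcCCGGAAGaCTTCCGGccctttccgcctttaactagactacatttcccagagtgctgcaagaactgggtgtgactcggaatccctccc

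A consensus of the NRF1 motif (10 letters, of which the sixth may be any base) was found for 9 of 67 genes (13.4%), against 14.01% of tested genes with a window. MRPL17, the large subunit gene with the second largest fall, carries it upstream:

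MRPL17 (chr11:6683341-6683460, - strand): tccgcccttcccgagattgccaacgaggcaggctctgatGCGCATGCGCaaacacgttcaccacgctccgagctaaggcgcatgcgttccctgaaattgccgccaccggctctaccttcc

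Of the other motifs searched on both strands, CACGTG (the E-box) was found for 9 of 67 genes, CCAAT for 23, TATAAA for 3 and TGATGCAA (the amino acid response element bound by ATF4) for 0. These shares were 13.4%, 34.3%, 4.48% and 0%, against 13.3%, 43.5%, 7.54% and 0.689% of tested genes with a window. The upstream stretch of MRPS11, which fell most, is printed in full. It held none of the 7 motifs, and it lies between the starts of MRPS11 and MRPL46, which are 320 bases apart on opposite strands:

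MRPS11 (chr15:88467458-88467707, + strand): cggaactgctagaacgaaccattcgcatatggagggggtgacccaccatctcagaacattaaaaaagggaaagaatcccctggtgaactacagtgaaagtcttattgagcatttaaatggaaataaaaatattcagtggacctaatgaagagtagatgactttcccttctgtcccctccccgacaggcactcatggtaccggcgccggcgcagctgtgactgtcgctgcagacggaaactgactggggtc

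These matches describe letters in a window. Binding was not measured.

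CDCA8 itself was at 3.98 and 3.94 RPM in the shCDCA8 libraries, against 14.2 and 16.5 RPM in the shCTRL libraries, and the targeted message therefore lay below the control in both shCDCA8 libraries (log2 fold change -1.72 ± 0.135 (SE), limma adjusted p = 7.86e-07). The table as a whole was shifted. Reads assigned to its genes made up 33.3% and 34.2% of the divisor in the shCDCA8 libraries and 41.1% and 43.6% in the shCTRL libraries, and the median log2 fold change of the 11833 tested genes was -0.27. Changes are therefore given as deposited and, in addition, after median-ratio scaling, which divides every library by the median of its ratios to a geometric mean library and brings that value to 0.0058. The 7 luminal prostate markers used, among them KLK3 and KRT8, were all detected. They summed to 1665 and 1722 RPM in shCDCA8 cells, against 3341 and 3451 RPM in shCTRL cells, with 4 of 7 lower and 2 higher by the test. Markers of other cell types were low. The 1 basal marker in the table (of 3 listed) was at 2.03 and 2.35 RPM in shCDCA8 cells, against 2.53 and 2.53 RPM in shCTRL cells. The 4 fibroblast markers summed to 3.64 and 4.07 RPM in shCDCA8 cells, against 9.81 and 12.1 RPM in shCTRL cells. Leukocyte and endothelial markers (3 of 4 listed) summed to 1.36 and 1.86 RPM in shCDCA8 cells, against 5.29 and 6.47 RPM in shCTRL cells. In shCTRL cells COL1A1 (9.62 and 11.8 RPM) made up most of the fibroblast sum. VWF (5.23 and 6.47 RPM) made up most of the leukocyte and endothelial sum. Both fell, also after scaling (log2 fold changes as deposited -1.30 and -1.40, limma adjusted p = 9.78e-06 and 8.94e-06). The part of these other markers in the results was not tested. In bulk RNA, fewer cells of a kind and less RNA per cell cannot be told apart.

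Mitoribosomal genes were higher in shCDCA8 cells than in shCTRL cells in 51 of 76 cases, while the median tested gene was lower. As deposited, 34 of the 76 genes rose (44.7%), 13 fell (17.1%) and 29 were not called, against a background in which 18.8% of the 11833 tested genes rose and 47.6% fell, 66.4% called in all (limma, Benjamini-Hochberg adjusted p under 0.05 over all tested genes). The median log2 fold change of the 76 was 0.17, which is 0.44 above the median of all tested genes, and 64 of the 76 lay above that median. The changes were moderate. The middle quartiles lay between -0.13 and 0.47, the extremes were -1.24 for MRPS11 and 1.04 for MRPL39, and on the log2(RPM + 1) scale 10 genes lay more than 1.5-fold above and 5 more than 1.5-fold below the control. By the ratio of mean RPM these counts were 14 and 6, and after median-ratio scaling of the log2 values 31 and 3. Of all 11833 tested genes, 1155 lay more than 1.5-fold above and 3865 more than 1.5-fold below, as deposited on the log2(RPM + 1) scale. By the ratio of mean RPM and after scaling, all tested genes were not counted. The 2 groups of libraries did not overlap for 64 of the 76 genes, a share close to the 83.2% of all tested genes.

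After median-ratio scaling 54 genes rose, 6 fell and 16 were not called, with a median of 0.46, against 33.2% of tested genes that rose and 33.6% that fell (66.8% called). No gene that rose under one scaling fell under the other, although 14 of the 25 genes with a log2 fold change below 0 as deposited were above 0 after scaling. All 34 rises were also called after scaling, 20 genes that had not been called now rose, and 7 of the 13 falls were no longer called. The 6 genes that fell under both scalings were MRPS11, MRPL9, MRPL17, MRPS27, MRPS16 and MRPL11.

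**Figure D1:**
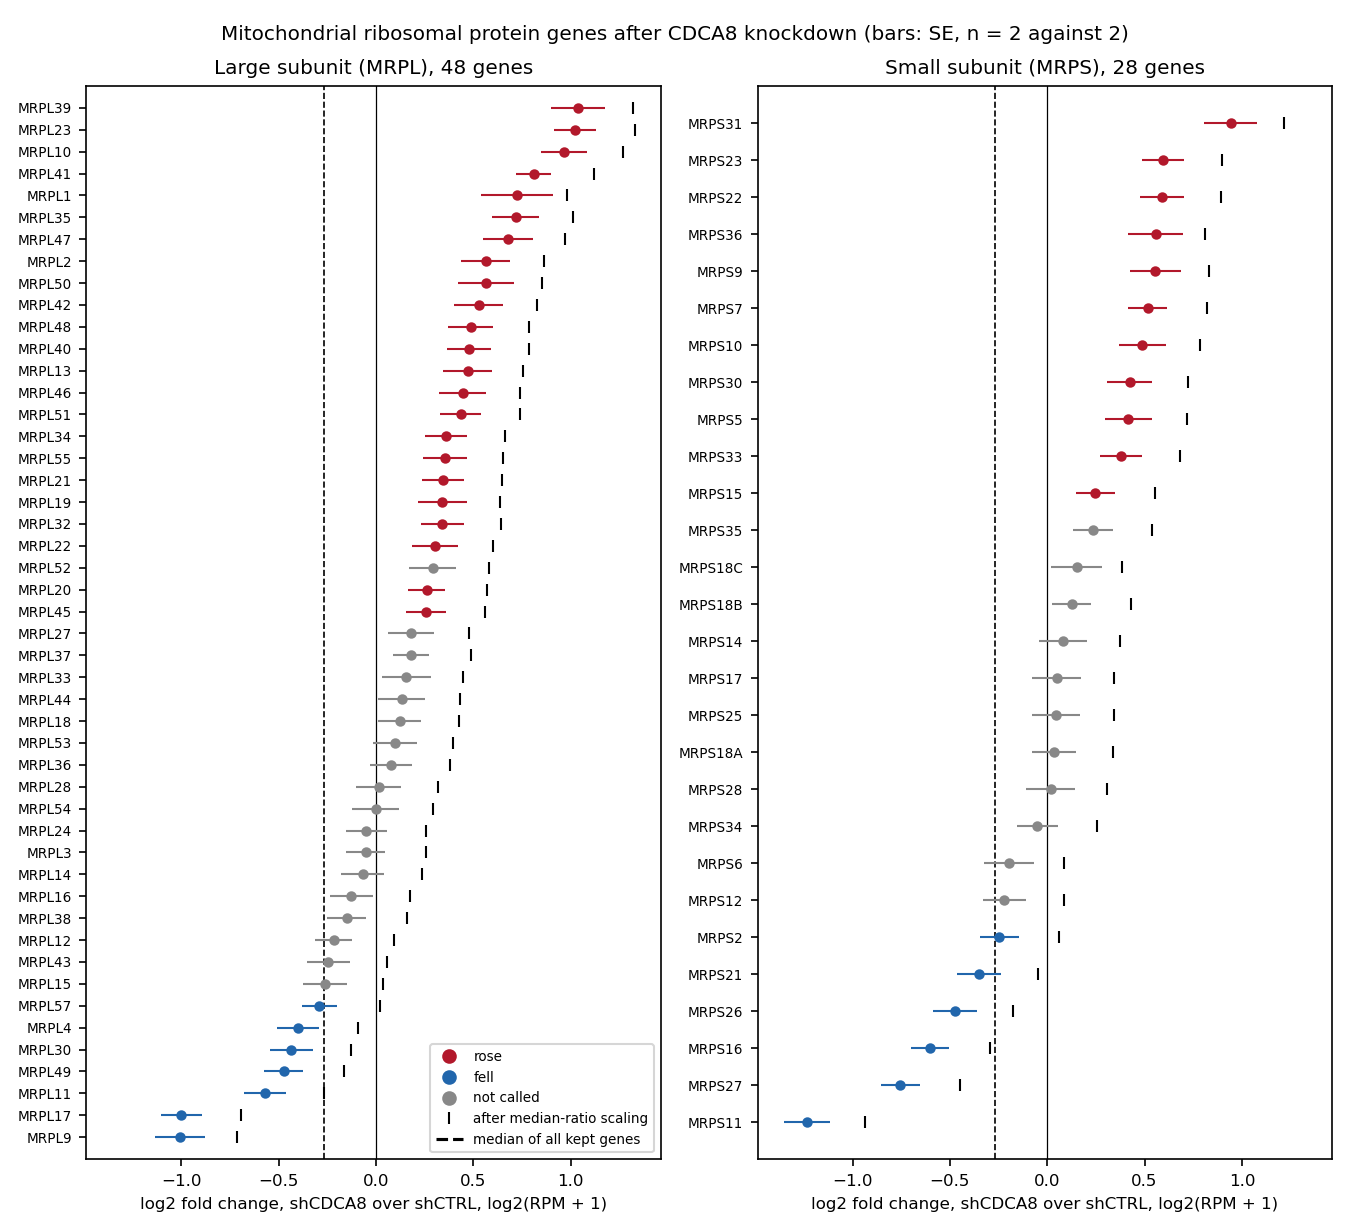
Log2 fold change of each of the 48 large subunit and 28 small subunit genes, shCDCA8 over shCTRL on the log2(RPM + 1) scale (x axis), with genes ordered by value down the page; points are the values as deposited with their SE (2 libraries against 2), ticks the values after median-ratio scaling, and the dashed line is the median of all tested genes at -0.27. Most points lie right of the dashed line (64 of 76), and 7 large and 6 small subunit genes fell.

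The subunits were compared next. Of the 48 large subunit genes 23 rose, 7 fell and 18 were not called, with a median log2 fold change of 0.22, and of the 28 small subunit genes 11 rose, 6 fell and 11 were not called, with a median of 0.10. The difference between these medians, 0.12, compares with 0.06 between replicate libraries measured in the same way. It was again 0.12 with MRPS30 and MRPS18A counted in the large subunit. These genes, at 0.42 and 0.03, lie on either side of both medians, so moving them left both medians unchanged. After scaling, 35 large subunit genes rose and 3 fell, with a median of 0.53, and 19 small subunit genes rose and 3 fell, with a median of 0.38. The spread of fold changes within a subunit (SD 0.46 for the large and 0.48 for the small) was several times the difference between them.

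The summed reads showed a similar order. Large subunit genes together had 2059 and 2038 RPM in shCDCA8 cells, against 1870 and 1951 RPM in shCTRL cells, which are 2049 ± 14.6 and 1910 ± 57.0 RPM (mean ± SD, n = 2 each). Small subunit genes had 921 and 917 RPM in shCDCA8 cells, against 914 and 964 RPM in shCTRL cells, and here the groups overlapped. The ratio of the sums, which does not depend on scaling, was 2.24 and 2.22 in shCDCA8 cells, against 2.05 and 2.02 in shCTRL cells. Part of this came from 1 gene, because MRPL41 alone added 65.5 RPM to the large subunit, and without it the ratio was 2.07 and 2.06 against 1.95 and 1.93. On the other side, MRPS16 and MRPS27 had 42.3 and 32.0 RPM less in shCDCA8 cells, the largest losses of any gene of the 76. As a share of the reads assigned to genes in the table, the 76 genes took 0.894% and 0.863% in shCDCA8 cells, against 0.677% and 0.668% in shCTRL cells.

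**Figure D2:**
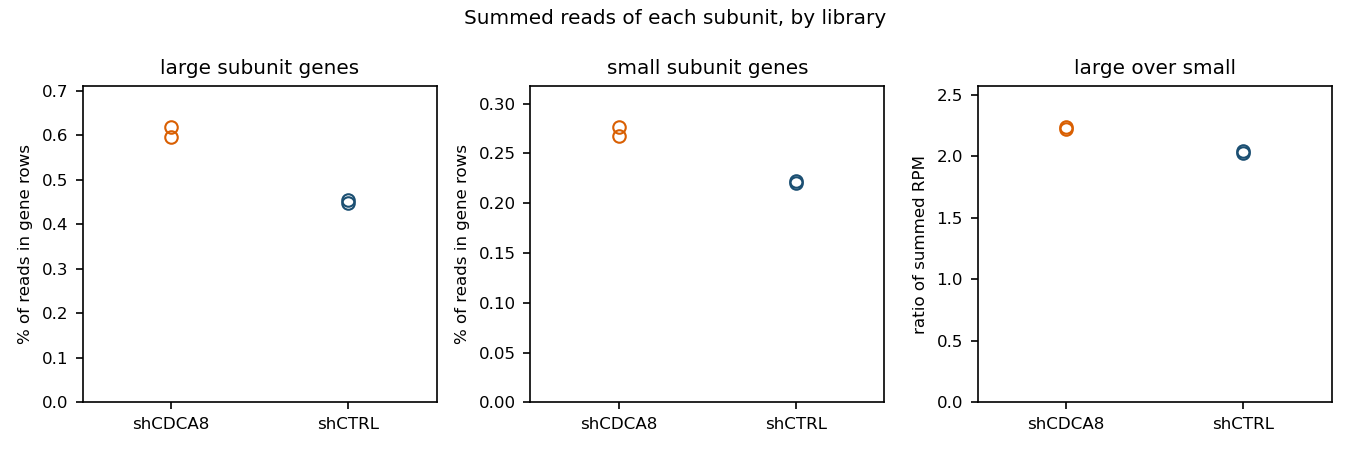
Reads of the large and the small subunit genes as a percentage of all reads in gene rows (y axis, left and middle) and the ratio of their summed RPM (y axis, right), by library; circles are single libraries, 2 for shCDCA8 and 2 for shCTRL. Both shares and the ratio are higher in both shCDCA8 libraries, the ratio at 2.24 and 2.22 against 2.05 and 2.02.

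The largest falls came from different places in the ribosome. MRPS11, the counterpart of bacterial S11 on the platform of the small subunit, was at 14.8 and 15.4 RPM in the shCDCA8 libraries, against 34.6 and 39.3 RPM in the shCTRL libraries. This was the lowest fold change of the family (log2 fold change -1.24 ± 0.118 (SE), limma adjusted p = 3.29e-06), and at -0.94 it remained low after scaling. MRPL9, the counterpart of bacterial L9, was at 14.3 and 12.8 RPM in the shCDCA8 libraries, against 25.8 and 30.7 RPM in the shCTRL libraries (log2 fold change -1.01 ± 0.129 (SE), limma adjusted p = 3.03e-05). MRPL17, whose bacterial counterpart lies beside the exit of the peptide tunnel, was at 29.5 and 30.1 RPM in the shCDCA8 libraries, against 58.2 and 63.0 RPM in the shCTRL libraries (log2 fold change -1.001 ± 0.106 (SE), limma adjusted p = 7.19e-06). In all 3 genes both shCDCA8 libraries lay below both shCTRL libraries, which was a condition for naming them among the largest falls. The RefSeq span of MRPL9 overlaps that of OAZ3, which rose, and without stated strand counting their reads cannot be told apart.

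A further pair of small subunit genes fell. MRPS27, a protein with pentatricopeptide repeats that has no bacterial counterpart, was at 44.8 and 46.1 RPM in the shCDCA8 libraries, against 76.0 and 79.0 RPM in the shCTRL libraries (log2 fold change -0.76 ± 0.0996 (SE), limma adjusted p = 3.93e-05). MRPS16, the counterpart of bacterial S16, whose loss in patients causes a combined respiratory chain deficiency, was at 77.7 and 83.6 RPM in the shCDCA8 libraries, against 118 and 128 RPM in the shCTRL libraries (log2 fold change -0.60 ± 0.0989 (SE), limma adjusted p = 0.000209). MRPS16 took the most reads of any small subunit gene, which makes its fall one of the largest in absolute terms. After scaling the log2 fold changes were -0.45 for MRPS27 and -0.29 for MRPS16.

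The largest rises were mostly in the large subunit. MRPL39, a mitochondrion-specific protein, was at 15.6 and 12.8 RPM in the shCDCA8 libraries, against 6.42 and 6.34 RPM in the shCTRL libraries (log2 fold change 1.04 ± 0.137 (SE), limma adjusted p = 4.04e-05). MRPL41, also mitochondrion-specific and the third most read gene of the large subunit, was at 151 and 152 RPM in the shCDCA8 libraries, against 85.8 and 86.2 RPM in the shCTRL libraries (log2 fold change 0.81 ± 0.0918 (SE), limma adjusted p = 1.26e-05). The replicates of MRPL41 were almost the same within each group, and the gap between the groups was far larger than either pair's difference. MRPL1, the protein of the mobile L1 stalk, was at 7.25 and 5.86 RPM in the shCDCA8 libraries, against 4.54 and 2.74 RPM in the shCTRL libraries (log2 fold change 0.73 ± 0.184 (SE), limma adjusted p = 0.00421). Its shCTRL libraries differed more than those of any other gene of the family, by 0.57 on the log2 scale. In the small subunit, MRPS31, which has no bacterial counterpart, was at 10.99 and 10.1 RPM in the shCDCA8 libraries, against 4.63 and 5.37 RPM in the shCTRL libraries, and rose most (log2 fold change 0.94 ± 0.136 (SE), limma adjusted p = 7.95e-05). MRPL39, MRPL41 and MRPL1 have no pseudogene listed in RefSeq and overlap no other tested gene, whereas MRPS31 has 3 pseudogenes whose reads could be shared.

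**Figure D3:**
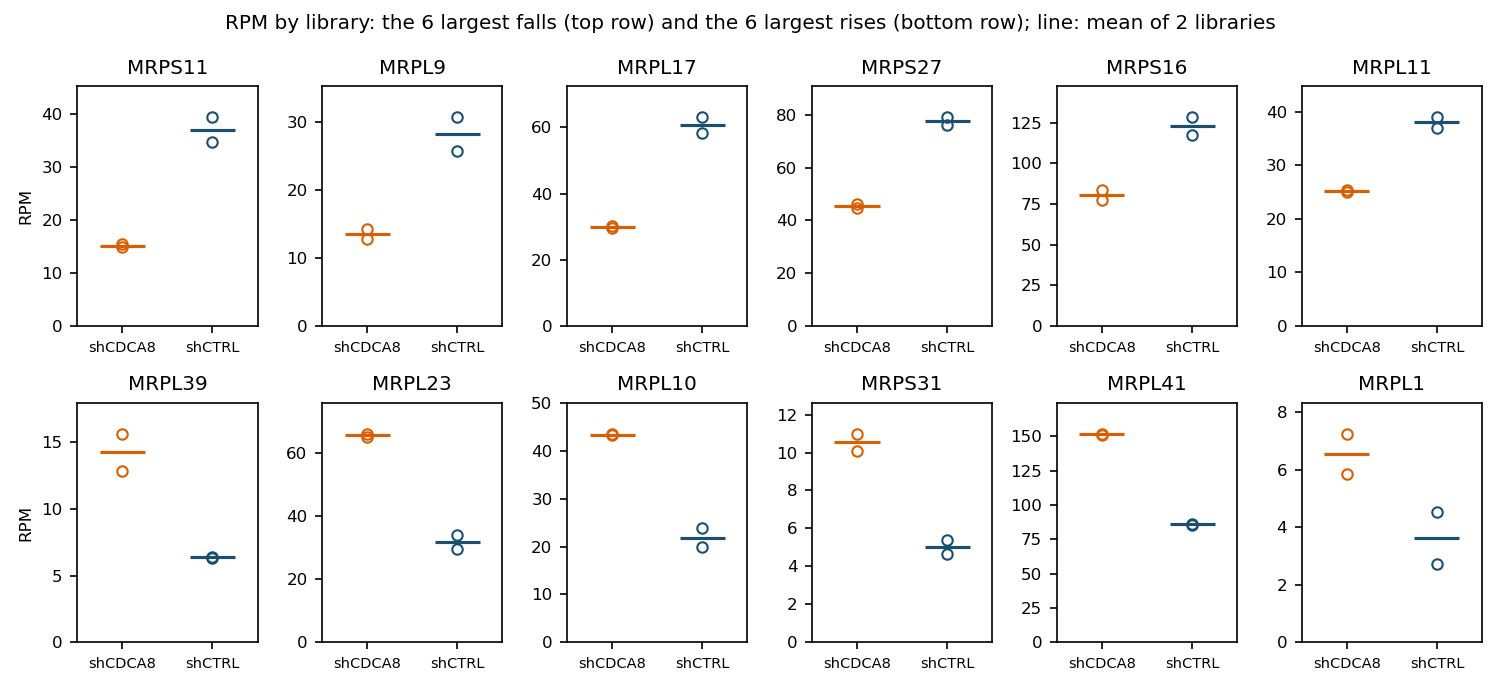
RPM (y axis, from 0) of the 6 genes with the largest falls (top row) and the 6 with the largest rises (bottom row) in each library, circles for single libraries and lines for the mean of 2, with shCDCA8 left of shCTRL. The 12 genes were picked among called genes whose groups do not overlap, so that gap was set by the choice. MRPS11 was at 14.8 and 15.4 RPM in shCDCA8 cells against 34.6 and 39.3 RPM in shCTRL cells.

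Neighbours in the structure did not move together at the factor-binding stalk of the large subunit. MRPL10, which roots the stalk, was at 43.5 and 43.2 RPM in the shCDCA8 libraries, against 19.8 and 23.8 RPM in the shCTRL libraries, and rose (log2 fold change 0.97 ± 0.119 (SE), limma adjusted p = 2.38e-05). MRPL11, at the base of the same stalk, was at 25.03 and 25.5 RPM in the shCDCA8 libraries, against 37.1 and 39.01 RPM in the shCTRL libraries, and fell (log2 fold change -0.57 ± 0.108 (SE), limma adjusted p = 0.000599). These 2 genes moved in opposite directions under both scalings, with 1.27 for MRPL10 and -0.27 for MRPL11 after scaling. MRPL12, the stalk protein that contacts the translation factors, was at 86.6 and 91.0 RPM in shCDCA8 cells, against 104 and 103 RPM in shCTRL cells, and was not called (log2 fold change -0.22, 95% interval -0.42 to -0.01, limma adjusted p = 0.0595). After scaling it stood at 0.09 and was again not called.

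Other genes encode proteins around the exit of the peptide tunnel, where the growing chain meets the inner membrane. MRPL23 was at 65.2 and 66.2 RPM in the shCDCA8 libraries, against 29.7 and 34.04 RPM in the shCTRL libraries (log2 fold change 1.02 ± 0.109 (SE), limma adjusted p = 7.85e-06), although its RefSeq span overlaps that of H19. MRPL45, which anchors the ribosome at the membrane, was at 50.2 and 47.3 RPM in the shCDCA8 libraries, against 40.1 and 41.2 RPM in the shCTRL libraries (log2 fold change 0.26, limma adjusted p = 0.0462). The fall of MRPL17 goes the other way. Named outside the rule for their place at the tunnel, MRPL22 and MRPL47 rose (log2 fold changes 0.30 and 0.68), and MRPL24 was not called as deposited (-0.05) but rose after scaling (0.26). The RefSeq spans of MRPL47 and MRPL24 overlap those of ACTL6A and HDGF. The calls of MRPL45 and MRPL22 were fragile. MRPL45 was not called with any 1 library left out (limma adjusted p = 0.0813 to 0.235), and MRPL22 was not called without shCDCA8 replicate 1, shCDCA8 replicate 2 or shCTRL replicate 1 (limma adjusted p = 0.0837 to 0.188).

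Several well-studied large subunit genes were not called as deposited. MRPL37, the most read gene of the family, was at 173 and 178 RPM in the shCDCA8 libraries, against 147 and 163 RPM in the shCTRL libraries (log2 fold change 0.18, limma adjusted p = 0.112). MRPL3, in which mutations cause cardiomyopathy, was at 91.6 and 83.7 RPM in the shCDCA8 libraries, against 90.8 and 91.1 RPM in the shCTRL libraries, so that its groups overlapped (log2 fold change -0.05, limma adjusted p = 0.644). MRPL44, which has a ribonuclease III fold and is also a cardiomyopathy gene, was at 20.8 and 21.7 RPM in the shCDCA8 libraries, against 18.01 and 20.7 RPM in the shCTRL libraries (log2 fold change 0.13, limma adjusted p = 0.35). All 3 rose after scaling (0.49, 0.26 and 0.43). The small proteins MRPL33 (log2 fold change 0.15) and MRPL36 (0.08) followed the same course, not called as deposited and higher after scaling. MRPL32, which the m-AAA protease must trim before it can join the ribosome, was at 27.4 and 26.2 RPM in the shCDCA8 libraries, against 20.7 and 21.2 RPM in the shCTRL libraries, and rose (log2 fold change 0.34, limma adjusted p = 0.018). MRPL57, the second most read, was at 139.6 and 132 RPM in the shCDCA8 libraries, against 165 and 169 RPM in the shCTRL libraries, and fell (log2 fold change -0.29, limma adjusted p = 0.0137), but its log2 fold change after scaling was 0.02. MRPL32 was not called without shCDCA8 replicate 1 or shCTRL replicate 1 (limma adjusted p = 0.111 and 0.0675), nor MRPL57 without either group's replicate 2 (0.0825 and 0.0742).

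Small subunit genes named for their role came out as follows. MRPS5, at the entry of the message, was at 29.1 and 24.8 RPM in the shCDCA8 libraries, against 19.2 and 20.6 RPM in the shCTRL libraries, and rose (log2 fold change 0.42, limma adjusted p = 0.00983). MRPS7, of the head of the subunit, was at 62.9 and 60.5 RPM in the shCDCA8 libraries, against 42.5 and 43.2 RPM in the shCTRL libraries, and rose (log2 fold change 0.52, limma adjusted p = 0.000763), though its RefSeq span overlaps those of GGA3 and MIF4GD. MRPS12, at the decoding centre, was at 35.2 and 37.8 RPM in shCDCA8 cells, against 40.3 and 45.1 RPM in shCTRL cells, and was not called (log2 fold change -0.22, limma adjusted p = 0.0972; 0.08 after scaling). MRPS2 was at 63.6 and 70.5 RPM in shCDCA8 cells, against 79.4 and 79.8 RPM in shCTRL cells, and fell by the test as deposited (log2 fold change -0.25, limma adjusted p = 0.047), while the same gene stood at 0.06 after scaling and was then not called. MRPS15, the third most read of the small subunit, was at 74.8 and 72.8 RPM in shCDCA8 cells, against 59.8 and 64.5 RPM in shCTRL cells, and rose (log2 fold change 0.25, limma adjusted p = 0.046). The calls near the threshold were lost when a library was left out. MRPS15 was not called without any 1 of the 4 (limma adjusted p = 0.0689 to 0.248), MRPS2 was called only without shCDCA8 replicate 2, and MRPS5 was not called without shCDCA8 replicate 1 (0.118).

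Among mitochondrion-specific small subunit genes tied to inherited respiratory chain disease, MRPS22 was at 36.3 and 32.7 RPM in the shCDCA8 libraries, against 22.9 and 22.2 RPM in the shCTRL libraries, and rose (log2 fold change 0.59, limma adjusted p = 0.000651). MRPS34, which stabilises the small subunit, was at 51.6 and 55.7 RPM in the shCDCA8 libraries, against 54.0 and 57.3 RPM in the shCTRL libraries, with overlapping groups and no call (log2 fold change -0.05, limma adjusted p = 0.681). After scaling MRPS34 rose (log2 fold change 0.26, limma adjusted p = 0.0205), and its RefSeq span overlaps that of EME2. MRPS30, found in the large subunit, was at 29.6 and 31.04 RPM in the shCDCA8 libraries, against 21.4 and 23.4 RPM in the shCTRL libraries, and rose (log2 fold change 0.42, limma adjusted p = 0.00593). MRPS36, whose product belongs to a dehydrogenase, was at 6.43 and 5.30 RPM in the shCDCA8 libraries, against 3.62 and 3.68 RPM in the shCTRL libraries, and rose as well (log2 fold change 0.56, limma adjusted p = 0.00402), but was not called without shCDCA8 replicate 1 (limma adjusted p = 0.0528).

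The 3 MRPS18 genes are diverged copies of 1 ancestral gene and occupy different sites. MRPS18A was at 35.96 and 35.6 RPM in shCDCA8 cells, against 32.5 and 37.6 RPM in shCTRL cells, MRPS18B at 52.2 and 53.0 RPM in shCDCA8 cells, against 47.2 and 49.1 RPM in shCTRL cells and MRPS18C at 3.23 and 3.27 RPM in shCDCA8 cells, against 2.78 and 2.89 RPM in shCTRL cells. None was called, with log2 fold changes of 0.03, 0.12 and 0.15, and all 3 rose after scaling. The groups overlapped for MRPS18A and not for MRPS18B or MRPS18C.

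Whether a protein has a bacterial counterpart divided the family to a similar degree as its subunit did. Genes numbered up to 36 in the large subunit and up to 21 in the small subunit, with MRPL47, were taken as conserved, 45 in all. The 31 mitochondrion-specific genes had a median log2 fold change of 0.29, with 16 that rose (51.6%), 4 that fell (12.9%) and 11 that were not called. The 45 conserved genes had a median of 0.12, with 18 that rose (40%), 9 that fell (20%) and 18 that were not called. Of all tested genes 18.8% rose and 47.6% fell. The order was the same within each subunit, at 0.29 for specific and 0.15 for conserved large subunit genes, and 0.31 for specific and 0.06 for conserved small subunit genes. After scaling the medians were 0.58 for the specific and 0.39 for the conserved genes. These are descriptions of lists, with no test of their difference.

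Some mitoribosomal genes start head to head with another gene, which allows each to be set beside a close neighbour. A partner with a start within 1000 bases on the opposite strand was listed for 26 of the 67 genes with a promoter window. Overlaps of up to 200 bases were allowed. In 19 pairs the partner was tested as well. How many of all genes have such a partner was not counted. As deposited, both genes of a pair rose in 1 case, both fell in 1, the calls were opposite in 3, only 1 gene was called in 12 and neither in 2. After scaling, the counts were 4, 0, 5, 9 and 1. Pairs over the whole table were not counted, while 66.4% of single tested genes were called as deposited and 66.8% after scaling. The partners named here were chosen after their values were seen. In the pair that belongs to the family on both sides, MRPS11 fell while MRPL46, a large subunit gene, was at 16.4 and 17.5 RPM in the shCDCA8 libraries, against 11.9 and 12.4 RPM in the shCTRL libraries, and rose (log2 fold change 0.45 ± 0.122 (SE), limma adjusted p = 0.00655). MRPL51 rose (log2 fold change 0.43), while NCAPD2, a condensin subunit whose start is 840 bases away, was at 22.4 and 22.4 RPM in the shCDCA8 libraries, against 74.8 and 80.6 RPM in the shCTRL libraries, and fell (log2 fold change -1.75, limma adjusted p = 1.17e-07). MRPL9 fell while OAZ3 was at 7.14 and 7.13 RPM in shCDCA8 cells, against 4.24 and 5.29 RPM in shCTRL cells, and rose (log2 fold change 0.50, limma adjusted p = 0.00783). In the only pair where both rose, MRPL32 was joined by the proteasome gene PSMA2 (log2 fold change 0.47, limma adjusted p = 0.00438). In the only pair where both fell, MRPL57 was joined by SKA3, a kinetochore gene, at 5.47 and 5.43 RPM in shCDCA8 cells, against 10.8 and 11.99 RPM in shCTRL cells (log2 fold change -0.94, limma adjusted p = 5.91e-05).

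**Figure D4:**
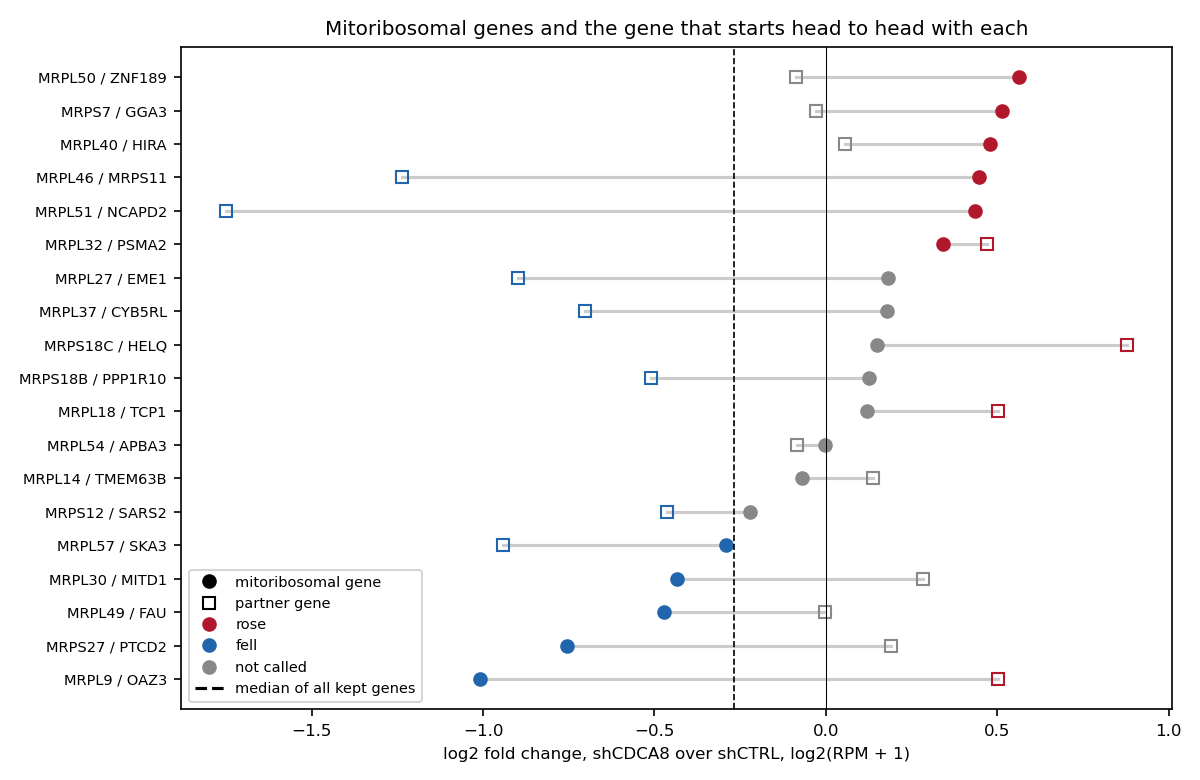
Log2 fold change (shCDCA8 over shCTRL, log2(RPM + 1), x axis) of each mitoribosomal gene (circles) and of the tested gene that starts head to head with it (squares), 19 pairs down the page; colours give the call as deposited and the dashed line the median of all tested genes. MRPL46 with MRPS11, MRPL51 with NCAPD2 and MRPL9 with OAZ3 have opposite calls.

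Genes around the ribosome were read from lists chosen for their role, against 18.8% of all tested genes that rose and 47.6% that fell as deposited, and 33.2% and 33.6% after scaling. Of 6 further mitoribosomal proteins with other names, 3 rose, 0 fell and 3 were not called, and all 6 rose after scaling. ICT1 (MRPL58), which releases peptides from stalled ribosomes and is built into the large subunit, was at 52.9 and 50.3 RPM in the shCDCA8 libraries, against 32.0 and 31.04 RPM in the shCTRL libraries (log2 fold change 0.69, limma adjusted p = 0.000112). PTCD3 (MRPS39), a pentatricopeptide protein at the message entry, was at 26.5 and 25.4 RPM in the shCDCA8 libraries, against 15.9 and 16.3 RPM in the shCTRL libraries (log2 fold change 0.66, limma adjusted p = 0.000327). AURKAIP1 (MRPS38) was at 166 and 169 RPM in the shCDCA8 libraries, against 136 and 140.0 RPM in the shCTRL libraries (log2 fold change 0.28, limma adjusted p = 0.0162). In these 3 both shCDCA8 libraries lay above both shCTRL libraries.

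Of 26 tested assembly factors and ribosomal RNA modifiers 8 rose, 7 fell and 11 were not called, with a median of -0.09. After scaling 13 rose and 4 fell. MPV17L2, an inner membrane protein needed for assembly, was at 4.77 and 5.23 RPM in the shCDCA8 libraries, against 17.0 and 19.7 RPM in the shCTRL libraries (log2 fold change -1.69 ± 0.135 (SE), limma adjusted p = 9.14e-07). MRM1, a methyltransferase of the large ribosomal RNA, was at 1.67 and 1.94 RPM in the shCDCA8 libraries, against 6.98 and 7.77 RPM in the shCTRL libraries (log2 fold change -1.58 ± 0.137 (SE), limma adjusted p = 1.6e-06). METTL15, a methyltransferase of the small ribosomal RNA, was at 4.80 and 4.59 RPM in the shCDCA8 libraries, against 1.28 and 1.24 RPM in the shCTRL libraries (log2 fold change 1.34 ± 0.130 (SE), limma adjusted p = 3.85e-06). These 3 had the smallest p-values of the list, and their groups were well apart, 2 genes below the control and 1 above it.

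Of 14 mitochondrial translation factors 6 rose, 2 fell and 6 were not called (median 0.20), and after scaling 9 rose and 2 fell. MTFMT, which formylates the initiator tRNA, was at 7.06 and 7.52 RPM in the shCDCA8 libraries, against 18.6 and 17.9 RPM in the shCTRL libraries (log2 fold change -1.22 ± 0.125 (SE), limma adjusted p = 5.87e-06). GFM2, the elongation factor G homologue that recycles ribosomes, was at 29.2 and 24.5 RPM in the shCDCA8 libraries, against 11.3 and 10.9 RPM in the shCTRL libraries (log2 fold change 1.20 ± 0.127 (SE), limma adjusted p = 7.41e-06). LRPPRC, which stabilises mitochondrial messages, was at 34.4 and 35.8 RPM in the shCDCA8 libraries, against 17.1 and 13.8 RPM in the shCTRL libraries (log2 fold change 1.14 ± 0.127 (SE), limma adjusted p = 1.06e-05). In MTFMT both shCDCA8 libraries were below both shCTRL libraries, and in GFM2 and LRPPRC both were above.

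Of 12 genes for mitochondrial transcription and RNA processing 4 rose, 0 fell and 8 were not called (median 0.15), and after scaling 10 rose and 0 fell. The 3 with the smallest p-values were MTERF (MTERF1, a transcription termination factor; log2 fold change 0.76, limma adjusted p = 0.000302), PNPT1 (a ribonuclease; log2 fold change 0.65, limma adjusted p = 0.000968) and TEFM (an elongation factor; log2 fold change 0.53, limma adjusted p = 0.00402). Of 9 genes for membrane insertion and protein quality control 2 rose, 4 fell and 3 were not called, with 3 that rose and 1 that fell after scaling. The shares as deposited, 22.2% and 44.4%, were close to those of all tested genes. CLPX, the unfoldase of the matrix ClpXP protease, was at 24.3 and 25.9 RPM in the shCDCA8 libraries, against 13.9 and 13.6 RPM in the shCTRL libraries, and rose (log2 fold change 0.83, limma adjusted p = 6.72e-05), while CLPP, its peptidase, was at 62.4 and 67.6 RPM in the shCDCA8 libraries, against 86.8 and 89.9 RPM in the shCTRL libraries, and fell (log2 fold change -0.44, limma adjusted p = 0.00202). CLPP was not called after scaling (-0.13). LONP1, the other main matrix protease, was at 70.2 and 89.7 RPM in the shCDCA8 libraries, against 111 and 133 RPM in the shCTRL libraries, and fell (log2 fold change -0.60, limma adjusted p = 0.00138). After scaling its log2 fold change was -0.30 (limma adjusted p = 0.0409), and edgeR did not call it (adjusted p = 0.056).

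Of 10 tested regulators of nuclear genes for mitochondria and of growth, 1 rose, 6 fell and 3 were not called (median -0.47), and after scaling 3 rose and 4 fell. ATF4, the stress-response factor that is induced when mitochondrial translation fails, was at 131 and 125 RPM in the shCDCA8 libraries, against 662 and 677 RPM in the shCTRL libraries (log2 fold change -2.38 ± 0.0858 (SE), limma adjusted p = 3.21e-09). MYC was at 54.99 and 59.3 RPM in the shCDCA8 libraries, against 153 and 139 RPM in the shCTRL libraries (log2 fold change -1.34 ± 0.1005 (SE), limma adjusted p = 5.76e-07). E2F1 was at 7.23 and 8.03 RPM in the shCDCA8 libraries, against 23.0 and 27.4 RPM in the shCTRL libraries (log2 fold change -1.60 ± 0.133 (SE), limma adjusted p = 1.21e-06). Factors whose motifs were counted above are named for that reason. GABPA was at 5.74 and 6.47 RPM in shCDCA8 cells, against 2.91 and 1.499 RPM in shCTRL cells. It rose (log2 fold change 1.18, limma adjusted p = 0.000169). GABPB1, in the same list, was at 6.66 and 6.51 RPM in shCDCA8 cells, against 5.25 and 5.59 RPM in shCTRL cells. It was not called as deposited (log2 fold change 0.24, limma adjusted p = 0.125) but rose after scaling (0.51). YY1 was at 36.3 and 41.6 RPM in shCDCA8 cells, against 42.2 and 42.2 RPM in shCTRL cells. It was not called (log2 fold change -0.12, limma adjusted p = 0.37). NRF1 was at 5.13 and 5.21 RPM in shCDCA8 cells, against 7.32 and 8.61 RPM in shCTRL cells. It fell (log2 fold change -0.53, limma adjusted p = 0.00449), though not after scaling (-0.26).

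Set beside other large complexes, the family lay between them. Of 76 tested cytosolic ribosomal protein genes 2 rose and 71 fell, with a median of -0.62, and after scaling 3 rose and 50 fell. Of 37 genes for complex I subunits (NDUF) 21 rose, 0 fell and 16 were not called, with a median of 0.32, and after scaling 36 rose. The mitoribosomal spread (SD 0.47) was wider than that of the cytosolic ribosomal genes (0.31) or the complex I genes (0.26). It was narrower than that of all tested genes (0.72), the assembly factors (0.69) or the translation factors (0.78). The transcription and RNA processing genes stood at 0.31, and the insertion and quality control genes at 0.47.

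**Figure D5:**
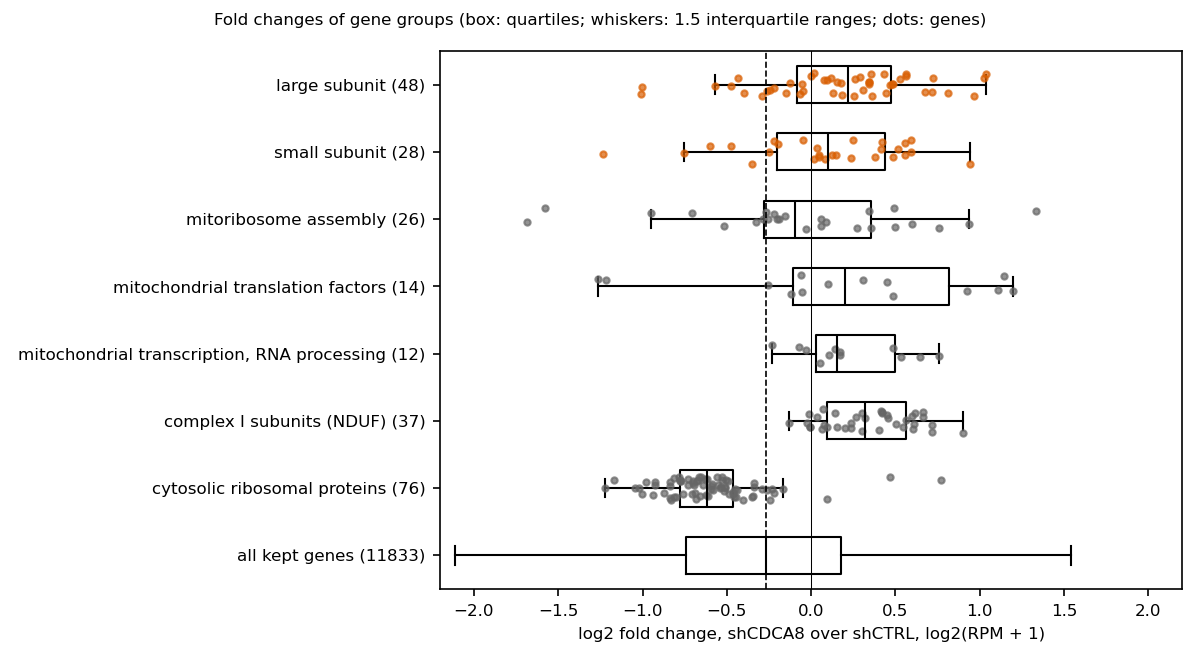
Log2 fold change (shCDCA8 over shCTRL, log2(RPM + 1), x axis) of large and small subunit genes (top rows), of the lists around the ribosome and of all 11833 tested genes (bottom row, dots not drawn); boxes are quartiles with the median, whiskers reach 1.5 interquartile ranges and dots are genes, with the number of genes in brackets. The medians are 0.22 for the large subunit, 0.10 for the small subunit, 0.32 for complex I and -0.62 for cytosolic ribosomal proteins, and the dashed line marks -0.27 for all tested genes.

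Reads that could belong to more than 1 gene limit part of these values. RefSeq lists 105 pseudogenes for 41 of the 76 genes, and the spans of 15 overlap another tested gene. Among the genes that fell under both scalings, MRPS11 and MRPL9 have 1 pseudogene each, MRPL11 has 2 and MRPS16 has 3. MRPL17 and MRPS27 have 0. Of the 29 genes with neither a pseudogene nor an overlap, 11 rose and 5 fell as deposited, against 34 and 13 of all 76. Of all tested genes 18.8% rose and 47.6% fell.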

How the data were processed

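PolyA RNA of 2 shCDCA8 and 2 shCTRL libraries was analysed. The deposited values are RPM made by the authors, per the file headers, and hg19, cutadapt, TopHat, HTSeq and edgeR appear in the submitters' processing notes. The extract protocol in the labels describes both a DNBseq and an Illumina route. The sources used here give neither the annotation, nor the strand setting, nor the choice of divisor. Values were whole multiples of 1 read (100% within 0.01), so reads were recovered: 17406425 and 18931009 in shCDCA8 libraries, 21920570 and 20380764 in shCTRL libraries, and 128 to 9845 per mitoribosomal gene.

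Log2(RPM + 1) was tested with limma 3.58.1 (R 4.3.3, trend, two-sided) on the 11833 genes that reached 1 RPM in 2 or more of the 4 libraries. "Rose" and "fell" mean an adjusted p (Benjamini-Hochberg, over these genes) under 0.05. The fold change understates that of low genes. On the recovered reads edgeR 4.0.16 called 7807 genes and DESeq2 1.42.0 was a further alternative. In simulated data 45.5% of 66 genes with a 1.5-fold change, 92.5% of 67 with 2-fold and 100% of 64 with 4-fold were recovered, and 1 of 11403 unchanged genes was called. Far fewer genes were changed there than were called in the data, so these shares need not hold here.

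Replicate libraries differed by more than sampling noise (chi-square per degree of freedom 10.0 in shCDCA8 and 8.08 in shCTRL). Replicate numbers were not treated as pairs. Genes named were the 6 largest falls and rises among called genes whose groups did not overlap. Also named were the 3 most read of each subunit, genes listed by role, the 3 smallest p-values of each list, and CDCA8. Others, such as genes shown only by sequence and head-to-head partners, were named after their values were seen. Members and lists were chosen with earlier results of these data known. Motifs were matched by exact letters. A further marker gene is not reported here.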

Additional observations from a re-analysis of the deposited data

How the results depend on the processing

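The rises grew in number and the falls shrank under every scaling that moves the table's centre: 54 genes rose and 6 fell after median-ratio scaling, 56 and 6 when scaled to the reads in gene rows, 53 and 6 with edgeR, 52 and 6 with DESeq2, and 49 and 7 after quantile normalization, against 34 and 13 as deposited. Higher and lower calls over all genes were 2224 and 5628 as deposited, 3931 and 3979 after median-ratio scaling, 3980 and 3721 after quantile normalization, 3851 and 3956 with edgeR, 3639 and 3575 with DESeq2, and 3985 and 3873 when scaled to reads in rows. Of the 76 genes, 21 rose (13 large, 8 small) and 6 fell (3 of each) in all 14 alternatives. The same count was not made over all tested genes, so whether this is particular to the family is not known. Against the median of all genes the family's median was 0.31 with a pseudocount of 5 RPM and 0.26 with no filter, against 0.44. Leaving out 1 library at a time gave 6717 to 7683 genes called, 24 to 29 mitoribosomal genes that rose, 10 to 12 that fell, a large minus small median of 0.084 to 0.12 and a relative median of 0.39 to 0.50, the lone library being assumed to vary like the others. With the replicate number as a block, 8901 genes were called, 37 mitoribosomal genes rose and 17 fell; the labels give only a number, and same-numbered libraries deviated together with r = 0.31. Of the 25 genes below 0 as deposited, 14 were above 0 after median-ratio scaling, 6 of them called as deposited or after it. Among those called under one or the other, MRPL24, MRPL3, MRPL57, MRPS2 and MRPS34 were at 0.26, 0.26, 0.019, 0.061 and 0.26 with median-ratio scaling, at 0.26, 0.26, 0.021, 0.062 and 0.26 with DESeq2, at 0.26, 0.25, 0.015, 0.057 and 0.26 with edgeR, and at 0.27, 0.27, 0.033, 0.075 and 0.27 when scaled to reads in rows, where MRPL14 was at 0.25. MRPL54 was at 0.29 with median-ratio scaling and 0.31 with reads in rows. Changes under 1.5-fold were not simulated, so how often they were missed with 2 libraries a group is not known.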
